A study of Homo sapiens with 6 samples.

Results

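The genes described here were 9 genes of the epithelial tight junction, *CLDN1*, *CLDN3*, *CLDN4*, *CLDN7*, *CLDN8*, *OCLN*, *TJP1*, *TJP3* and *F11R*, which were looked up by symbol in a table of 36517 genes. All 9 were listed in the table. In total 8 of them were counted often enough to be among the 19628 genes tested, and *CLDN1* was not. The libraries came from MDA-MB-453, an established human breast cancer cell line with the androgen receptor and ERBB2, sampled on day 3. In the shtRF group (lv-shtRF, 3 libraries), a lentivirus carried a short hairpin RNA against tRF-1-Ser, a small RNA derived from the 3′ part of a serine transfer RNA precursor. In the control group (lv-con, 3 libraries), the lentivirus carried a negative control hairpin (shNC). Both groups therefore shared the cell line, the viral infection and the expression of a hairpin. The comparison asks which messenger RNAs differed once tRF-1-Ser was targeted. The labels do not say whether the 3 libraries of a group came from separate cultures, so p-values measure only the spread between these libraries. The libraries were made from polyadenylated RNA, and the level of tRF-1-Ser itself was not measured in them.

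Tight junctions seal the space between neighbouring epithelial cells near their apical side. Claudins form the strands of the seal and set which ions pass, occludin and tricellulin are further membrane proteins of the strands, and the junctional adhesion molecules are immunoglobulin-like proteins beside them. The zonula occludens proteins (among them ZO-1 and ZO-3, encoded by *TJP1* and *TJP3*) bind the claudin tails from inside the cell and tie them to actin. In breast epithelium *CLDN3*, *CLDN4* and *CLDN7* are claudins of the luminal cells, and low claudin expression marks a group of mesenchymal-like breast tumours.

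Each library held between 63541413 and 78917459 counted reads. Of the luminal epithelial markers 9 of 9 were expressed and tested, including *EPCAM* at 504 ± 27 CPM (counts scaled to the library total after TMM adjustment) in the control group. The summed level of these markers per length (RPKM, counts scaled to the unadjusted library total and to the kilobases of exon) was 1180 to 1220 in the control libraries and 1360 to 1440 in the shtRF libraries. Summed RPKM was 0.702 to 0.934 against 0.339 to 0.493 for the 4 basal markers, 3.07 to 3.71 against 2.05 to 2.20 for the 6 fibroblast markers in the table, 0.0191 to 0.0446 against 0.0214 to 0.0392 for the 4 endothelial markers and 0.0982 to 0.128 against 0.0250 to 0.0720 for the 5 leukocyte markers. Of the markers of other cell types, 3 basal, 2 fibroblast, 1 endothelial and 0 leukocyte genes were counted often enough to be tested. The part of these marker levels in the results below was not tested.

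Regulatory sequence next to the genes is shown for members with an upstream window outside the counted exons of the same gene. The first such window of a gene was taken, and overlap with exons of other genes was not checked. The windows are the 250 bases before a transcription start annotated by RefSeq on GRCh38.p14, read 5′ to 3′ on the gene's strand. They were searched on both strands for CACCTG (the E-box bound by Snail and ZEB factors), AACCGGTT (the Grainyhead site), GGGCGG (the GC box bound by Sp1-type factors) and TGANTCA (the AP-1 site), and matches are in capitals. *CLDN3* is shown because it was the claudin of highest level per length and fell, *CLDN7* because it was called higher, and *TJP1* because it encodes the scaffold that both bind. The *CLDN3* window (chr7:73770271-73770520, minus strand) lies directly upstream of its single exon. The *TJP1* window (chr15:29969050-29969299, minus strand) lies upstream of the counted gene. The *CLDN7* window (chr17:7263214-7263463, minus strand) lies between exons of the counted gene model, which also has an earlier start.
CLDN3: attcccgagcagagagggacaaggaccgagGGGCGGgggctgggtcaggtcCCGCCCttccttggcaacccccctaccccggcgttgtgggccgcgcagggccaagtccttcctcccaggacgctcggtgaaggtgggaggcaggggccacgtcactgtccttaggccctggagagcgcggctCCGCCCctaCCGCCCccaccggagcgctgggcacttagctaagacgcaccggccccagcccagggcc
TJP1: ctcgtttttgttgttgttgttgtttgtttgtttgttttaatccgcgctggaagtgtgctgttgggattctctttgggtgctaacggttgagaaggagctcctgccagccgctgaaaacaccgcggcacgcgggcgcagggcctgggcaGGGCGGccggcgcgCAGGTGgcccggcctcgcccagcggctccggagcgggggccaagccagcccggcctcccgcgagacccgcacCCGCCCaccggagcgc
CLDN7: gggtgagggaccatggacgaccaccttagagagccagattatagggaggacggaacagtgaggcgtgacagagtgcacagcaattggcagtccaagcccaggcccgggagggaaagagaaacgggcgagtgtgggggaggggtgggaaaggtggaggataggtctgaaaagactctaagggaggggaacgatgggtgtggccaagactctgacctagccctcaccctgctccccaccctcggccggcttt

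The *CLDN3* window held 4 GC boxes, no E-box, no AP-1 site and no Grainyhead site, and 71.6% of its bases were G or C, against a median of 58% over 35116 windows. The *TJP1* window held 1 E-box and 2 GC boxes, and the *CLDN7* window shown held none of the 4 motifs. The other *CLDN7* window (chr17:7262479-7262728, minus strand), which lies in the counted exons of *CLDN7* and is not printed, held 4 E-boxes and 1 GC box, more E-boxes than any other of the windows. Windows were listed for 7 of the 9 genes, 13 in all. An E-box was present in 5 of the 13 windows, belonging to 4 genes, and in 17.5% of all windows. A GC box was present in 10 of the 13, covering 7 genes, and in 42.6% of all windows. The AP-1 site was found in 1 of the 13, that of *CLDN4*, and in 6.57% of all windows, and the Grainyhead site in 0 of the 13 and in 0.117% of all windows. No matches of different motifs overlapped. A match describes the letters only, since no binding was measured.

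Of the 8 tested genes, *CLDN3* and *OCLN* fell, *CLDN7* rose and the other 5 did not pass the threshold (edgeR quasi-likelihood test, Benjamini-Hochberg adjusted p under 0.05). Thus 37.5% of the tested members were called, against 39.5% of all tested genes. Genes called lower made up 18.9% of all tested genes and genes called higher 20.6%. The median log2 fold change (shtRF over control) was -0.06 over the 8 genes and -0.00 over all tested genes. None of the 8 was called with a change over 2-fold, which 5.77% of all tested genes were. The libraries of the groups did not overlap in CPM for 3 of the 8, against 48.7% of all tested genes. In bulk RNA, fewer cells expressing a gene and less RNA per cell cannot be told apart.

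**Figure D1:**
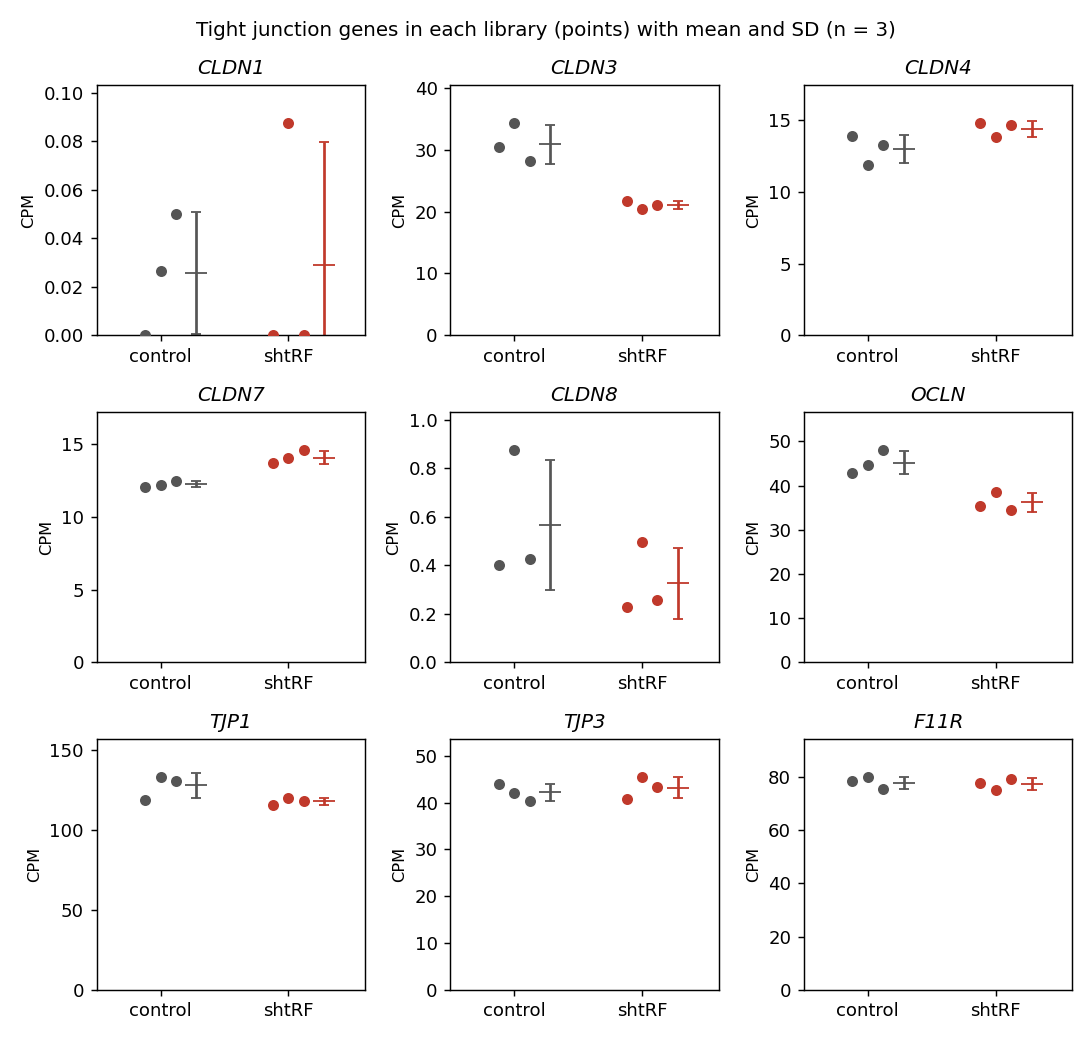
Level of each of the 9 genes in CPM (counts scaled to the TMM-adjusted library total, y axis from 0, own scale per panel) in the 3 control and 3 shtRF libraries, with points for libraries and a bar for mean and SD (cut at 0 for *CLDN1*). The shtRF points lie below all control points for *CLDN3* and *OCLN* and above them for *CLDN7*, and the groups overlap in the other 6 panels.

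Among the claudins, the gene with the clearest difference was *CLDN3* (GRCh38 chromosome 7, 73768997 to 73770270, minus strand), a barrier-forming claudin encoded by 1 exon. Its level was 30.4, 34.3 and 28.1 CPM in control libraries 1 to 3 and 21.7, 20.4 and 21.1 CPM in shtRF libraries 1 to 3. Every shtRF library was below every control library, and the control libraries were more spread. The mean fell by 31.9% in the fit, from 30.9 ± 3.17 to 21.1 ± 0.633 CPM (SD, n = 3 each), a log2 fold change of -0.55 ± 0.07 (SE) with an edgeR adjusted p of 2.65e-06. The call held in 16 of 16 alternative settings, in which the log2 fold change ranged from -0.62 to -0.48.

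*CLDN4*, whose product also serves as the receptor of a clostridial enterotoxin, is the neighbour of *CLDN3* on chromosome 7 (73799542 to 73832693, plus strand), 29272 bp away. That distance runs to the start of the counted gene model, and the RefSeq start lies further away, at 73830996. It was at 13.9, 11.9 and 13.3 CPM in the control libraries and at 14.8, 13.8 and 14.7 CPM in the shtRF libraries. The groups overlapped, since shtRF library 2 was below control library 1. The log2 fold change was 0.15 ± 0.08 with a 95% interval of -0.02 to 0.32 (edgeR adjusted p = 0.164), while the interval of *CLDN3* was -0.71 to -0.40. The call was made in 0 of 16 alternatives.

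*CLDN7* (chromosome 17, 7259903 to 7263983, minus strand) encodes a claudin that also sits along the lateral membrane in complex with EpCAM. Its level was 12.1, 12.2 and 12.5 CPM in the control libraries and 13.7, 14.1 and 14.6 CPM in the shtRF libraries. All shtRF libraries were above all control libraries, and the difference was small. It was 15.2% higher in the fit (log2 fold change 0.20 ± 0.08, 95% interval 0.04 to 0.37, edgeR adjusted p = 0.0425). This call lay close to the threshold and was made in 4 of 16 alternatives. The adjusted p was 0.107 without control library 1, 0.104 without control library 2, and 0.0642, 0.0868 and 0.137 without shtRF libraries 1, 2 and 3, while the log2 fold change stayed between 0.18 and 0.22 when any 1 library was left out. Of its exonic bases 12.3% were shared with exons of other genes, mainly the gene model RP1-4G17.5 on the same strand (10.8%), which had a log2 fold change of -0.11 (edgeR adjusted p = 0.270).

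*CLDN8* (chromosome 21, 30214006 to 30216073, minus strand), a claudin best known from the kidney tubule, was close to the limit of detection. Control libraries 1 to 3 gave 26, 66 and 34 counts, against 16, 34 and 16 in shtRF libraries 1 to 3. Control library 2 was the highest and the groups overlapped. The log2 fold change of -0.79 ± 0.43 had a 95% interval from -1.68 to 0.09 (edgeR adjusted p = 0.153), and leaving out 1 library moved it between -1.22 and -0.34. A difference was not detectable at this depth.

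*CLDN1* (chromosome 3, 190305701 to 190322475, minus strand), a claudin of the skin barrier that is lost in many breast tumours, gave 0, 2 and 4 counts in control libraries 1 to 3, against 0, 6 and 0 in shtRF libraries 1 to 3. It did not pass the filter on low counts and was not tested. Both *CLDN1* and *CLDN8* were thus near 0 in these cells in either group.

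Occludin, encoded by *OCLN* (chromosome 5, 69492292 to 69558104, plus strand), is a 4-pass membrane protein of the MARVEL family. Its level was 42.9, 44.6 and 48.0 CPM in the control libraries and 35.4, 38.6 and 34.6 CPM in the shtRF libraries. Every shtRF library was below every control library. The level fell by 19.9% in the fit (log2 fold change -0.32 ± 0.06, 95% interval -0.45 to -0.19, edgeR adjusted p = 0.000268). The call held in 16 of 16 alternatives, with log2 fold changes from -0.37 to -0.27 and adjusted p up to 0.00526. A pseudogene copy of *OCLN* is annotated in the human genome, and how reads shared with it were assigned is not given in the sources used here.

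*F11R* (chromosome 1, 160995211 to 161021348, minus strand) encodes junctional adhesion molecule A, which recruits polarity proteins to forming junctions. It was at 78.4, 79.9 and 75.4 CPM in the control libraries and at 78.0, 75.1 and 79.2 CPM in the shtRF libraries. The groups lay over each other. The log2 fold change was -0.01 ± 0.05 with a 95% interval of -0.12 to 0.10 (edgeR adjusted p = 0.914). Exons of the gene model RP11-544M22.13 on the same strand covered 36.6% of its exonic bases, and that gene model had a log2 fold change of 0.04.

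Of the scaffolds, *TJP1* (chromosome 15, 29699367 to 29968865, minus strand), encoding ZO-1, was at 119, 133 and 131 CPM in the control libraries and at 116, 120 and 118 CPM in the shtRF libraries. The groups overlapped in CPM through control library 1, which was below shtRF library 2. In RPKM, without TMM factors, they did not overlap, at 10.7, 12.1 and 11.8 against 10.4, 10.3 and 10.2. The log2 fold change was -0.11 ± 0.06 with a 95% interval of -0.23 to 0.00 (edgeR adjusted p = 0.112). Without control library 1 the difference passed the threshold, with a log2 fold change of -0.17 and an edgeR adjusted p of 0.0292, and it also passed with upper quartile scaling (-0.15, edgeR adjusted p = 0.0379) and with a filter of 1 CPM (-0.13, edgeR adjusted p = 0.0482).

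*TJP3* (chromosome 19, 3708109 to 3750813, plus strand), encoding ZO-3, the epithelium-restricted member of the family, was at 44.1, 42.0 and 40.4 CPM in the control libraries and at 40.8, 45.4 and 43.4 CPM in the shtRF libraries. The groups overlapped. The log2 fold change was 0.03 ± 0.06 with a 95% interval of -0.09 to 0.16 (edgeR adjusted p = 0.697), and its sign changed under some scalings.

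**Figure D2:**
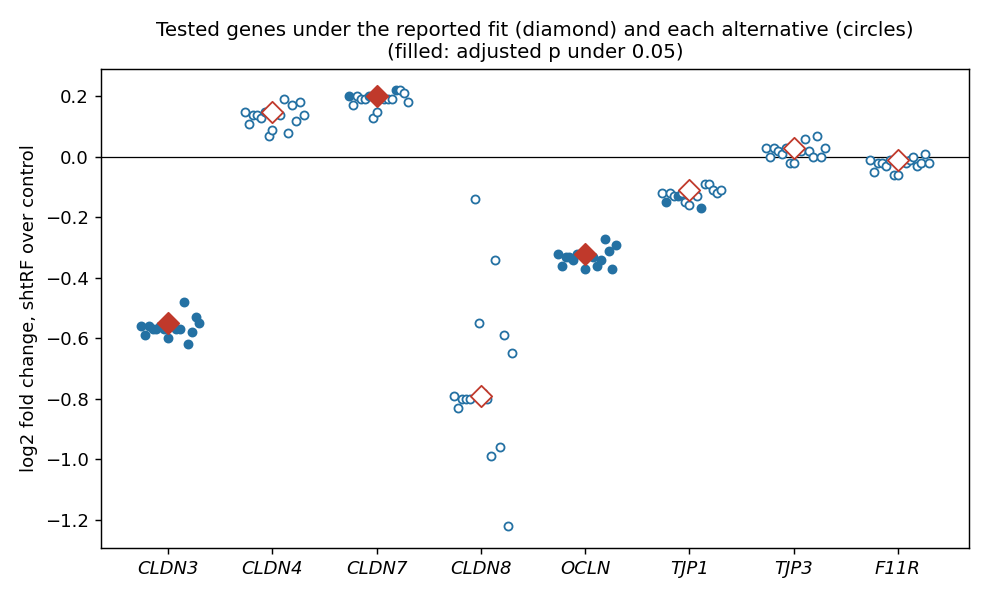
Log2 fold change (shtRF over control, y axis) of the 8 tested genes in the reported fit (red diamond) and in each alternative setting (blue circles), filled where the adjusted p was under 0.05. All circles of *CLDN3* and *OCLN* are filled and negative, those of *CLDN7* are positive and 4 of 16 are filled, and *CLDN8* spreads from -1.22 to -0.14. The -0.14 is from limma-trend on log2(RPKM + 1), where the added 1 exceeds the RPKM of *CLDN8* and shrinks its difference.

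Per exonic length, the order of the 9 genes in the control group was *CLDN3* at 24.7 ± 2.70 RPKM, *F11R* at 15.7, *TJP1* at 11.5, *TJP3* at 10.2, *OCLN* at 6.80, *CLDN7* at 5.01, *CLDN4* at 2.82, *CLDN8* at 0.279 and *CLDN1* at 0.00708. The ranges of neighbours in this order did not overlap in the control group. In the shtRF group *CLDN3* was at 16.2 ± 0.883 RPKM and overlapped *F11R* at 15.0 RPKM, *TJP1* at 10.3 RPKM overlapped *TJP3* at 10.0 RPKM, and *CLDN7* at 5.56 RPKM came ahead of *OCLN* at 5.25 RPKM with overlapping ranges. On a scale of TMM-scaled CPM per kilobase the ranges of *CLDN3* (16.5) and *F11R* (15.3) in the shtRF group no longer overlapped, and the order was the same. RPKM depends on the exonic length used, which was 4702 bases for *CLDN4* and counts an upstream start far from the RefSeq one, against 1274 bases for *CLDN3*.

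The make-up of the claudin messenger RNA differed between the groups. Of the RPKM summed over the 24 claudins in the table, *CLDN3* held 68.3%, 69.6% and 65.4% of it in control libraries 1 to 3, against 57.4%, 55.5% and 55.1% in shtRF libraries 1 to 3. *CLDN7* held 13.9%, 12.7% and 14.9% against 18.6%, 19.5% and 19.6%, and *CLDN4* held 8.43%, 6.55% and 8.41% against 10.6%, 10.1% and 10.4%. None of these 3 sets of shares overlapped between the groups. The size of a share depends on the exonic lengths used, and the 4702 bases of *CLDN4* count an upstream start far from the RefSeq one. A share can rise because another claudin falls, and the summed claudin RPKM itself was lower in the shtRF group, at 29.9, 27.8 and 29.3 against 35.6, 39.7 and 34.1 in the control group. The next claudins by share were *CLDN12* (4.54% against 6.49%), which lacks the usual tail for binding ZO proteins, *CLDN23* (2.09% against 2.97%, with overlapping libraries) and *CLDN2* (1.48% against 2.43%), a claudin that forms cation pores.

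**Figure D3:**
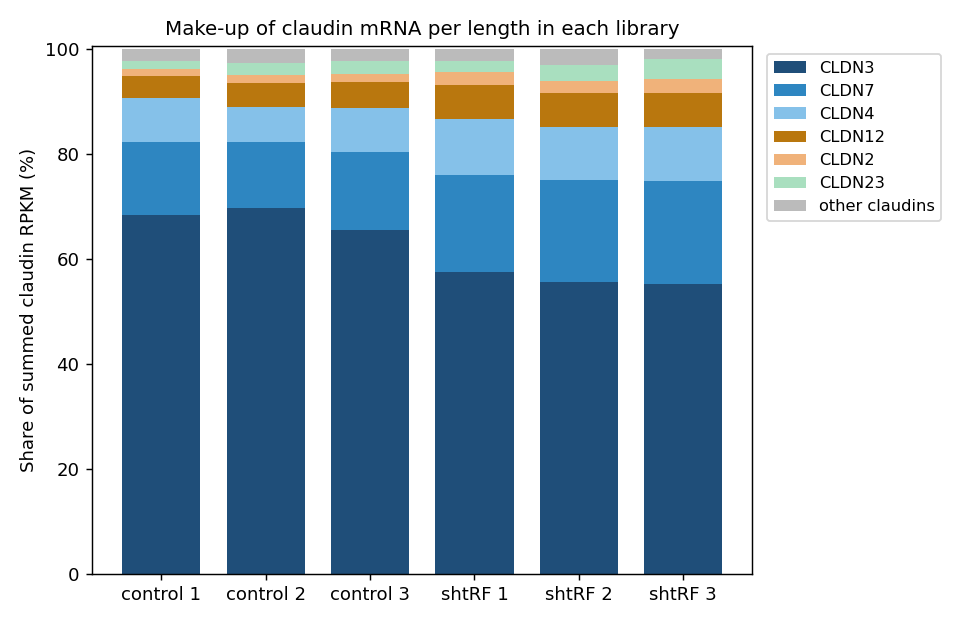
Share of the summed claudin RPKM (%, y axis from 0) held by each claudin in the 6 libraries, stacked. The bottom block, *CLDN3*, is 65.4% or more in every control library and 57.4% or less in every shtRF library. The size of each block depends on the exonic lengths used.

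Ratios of counts within a library, which do not depend on scaling, were formed for pairs chosen after the levels were seen. The ratio of *CLDN3* to *CLDN4* counts was 2.20, 2.88 and 2.11 in control libraries 1 to 3, against 1.46, 1.48 and 1.43 in shtRF libraries 1 to 3, and the ratio of *CLDN3* to *CLDN7* was 2.52, 2.81 and 2.25 against 1.58, 1.45 and 1.44. Both ratios were lower in every shtRF library. The ratio of *CLDN4* to *CLDN7* overlapped between the groups, at 1.06 ± 0.0864 and 1.02 ± 0.0525. For the MARVEL proteins, *OCLN* to *MARVELD3* was 0.628, 0.703 and 0.680 across the control libraries against 0.343, 0.359 and 0.321 across the shtRF libraries. The ratio of *TJP1* to *TJP3* overlapped between the groups, at 3.03 ± 0.299 and 2.74 ± 0.0991.

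Other genes of the junction were taken as 4 lists of 53 genes, of which 39 were tested. In total 10 of the 39 rose and 5 fell, or 38.5% called, with a median log2 fold change of 0.10, and the groups did not overlap for 22 of them. Over all tested genes the called share was 39.5%, and the groups did not overlap for 48.7%. In both limma-trend fits on log2 RPKM, 5 were called higher and 6 lower. Among the 19 other claudins 7 were tested, 2 rose and none fell (28.6% called). *CLDN2* went from 1.80 ± 0.194 to 2.45 ± 0.254 CPM (log2 fold change 0.44, edgeR adjusted p = 0.0483) and *CLDN12* from 10.9 ± 1.13 to 12.9 ± 0.292 CPM (0.24, edgeR adjusted p = 0.0374), and 11 of the 19 had at most 10 counts in every library. Both calls depended on the setting, and *CLDN2* was called in 3 and *CLDN12* in 8 of 16 alternatives. The call of *CLDN2* was lost with DESeq2 (adjusted p = 0.0571), upper quartile scaling, each other filter, halved counts, the replicate block and both limma-trend fits, and that of *CLDN12* with upper quartile scaling (edgeR adjusted p = 0.0788), no filter (0.0652) and both limma-trend fits. Both were also lost when single libraries were left out. For *CLDN2* the edgeR adjusted p was 0.134 and 0.105 without control libraries 1 and 3 and 0.132 and 0.139 without shtRF libraries 1 and 3. For *CLDN12* it was 0.207 without control library 1, where the log2 fold change was 0.15, and 0.0929, 0.0622 and 0.106 without shtRF libraries 1, 2 and 3. Over all 24 claudins, 11 were tested, 3 rose and *CLDN3* alone was called lower (36.4% called, against 39.5% of all tested genes).

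Of the 10 other transmembrane proteins 8 were tested and 3 rose, none fell (37.5% called, against 39.5% of all tested genes). *MARVELD3*, a relative of occludin in the same MARVEL family, rose from 67.5 ± 3.67 to 106 ± 2.62 CPM (log2 fold change 0.65, edgeR adjusted p = 3.13e-09). It thus moved opposite to *OCLN*. Of its exonic bases 16.6% were shared with *PHLPP2* on the other strand, which had a log2 fold change of 0.52. *LSR*, the angulin of tricellular contacts, rose from 28.2 ± 2.11 to 38.4 ± 0.157 CPM (0.45, edgeR adjusted p = 6.82e-06). *CRB3*, a Crumbs polarity protein named after its values were seen, rose from 16.0 to 19.1 CPM (0.25, edgeR adjusted p = 0.00870).

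The 12 other cytoplasmic scaffolds were all tested, and 4 rose, 4 fell and 4 did not pass (66.7% called, against 39.5% of all tested genes). The largest change in the 4 lists past the threshold was that of *MPDZ*, encoding the multi-PDZ scaffold MUPP1, at 13.1, 11.2 and 14.2 CPM in the control libraries and 4.93, 4.22 and 3.21 CPM in the shtRF libraries. The log2 fold change was -1.63 ± 0.13 (edgeR adjusted p = 1.01e-09), and it was the only gene of the 4 lists called with a change over 2-fold. *PATJ*, its close relative with a similar array of PDZ domains, rose from 108 ± 4.94 to 124 ± 5.89 CPM (0.20, edgeR adjusted p = 0.00563), and the adjusted p was 0.0524 without control library 1 and 0.0549 without shtRF library 3 and, in the limma-trend fits, 0.0913 and 0.0891. Cingulin (*CGN*), an actin-linked partner of ZO-1, was at 173 ± 7 and 171 ± 5.99 CPM (-0.01, edgeR adjusted p = 0.889). The following were named after their values were seen. Paracingulin (*CGNL1*) rose from 19.5 to 36.7 CPM (0.91, edgeR adjusted p = 1.01e-08), and *AMOTL2* rose by 0.56 on the log2 scale while its relatives *AMOTL1* (-0.62) and *AMOT* (-0.53), all angiomotins, fell. The call of *AMOT* was lost without control library 3 (edgeR adjusted p = 0.0518), shtRF library 1 (0.0674) or shtRF library 3 (0.0547). *MAGI3* fell from 65.0 to 49.1 CPM (-0.40, edgeR adjusted p = 3.62e-06).

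The 12 genes of the apical polarity complexes were all tested, and 1 rose and 1 fell (16.7% called, against 39.5% of all tested genes). The most abundant, *DLG1* (171 to 185 CPM, log2 fold change 0.11, edgeR adjusted p = 0.0930) and *MPP5* (108 to 111 CPM, 0.04, edgeR adjusted p = 0.618), did not pass. *PARD3*, the Par complex scaffold that binds F11R's protein, was named after its values were seen and fell from 54.1 ± 1.43 to 38.7 ± 3 CPM (-0.48, edgeR adjusted p = 1.60e-06), and *SCRIB*, named in the same way, rose (0.18, edgeR adjusted p = 0.0122). The call of *SCRIB* was lost without control library 2 (edgeR adjusted p = 0.102) or shtRF library 3 (0.0726), and in both limma-trend fits (0.0950 and 0.0943).

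**Figure D4:**
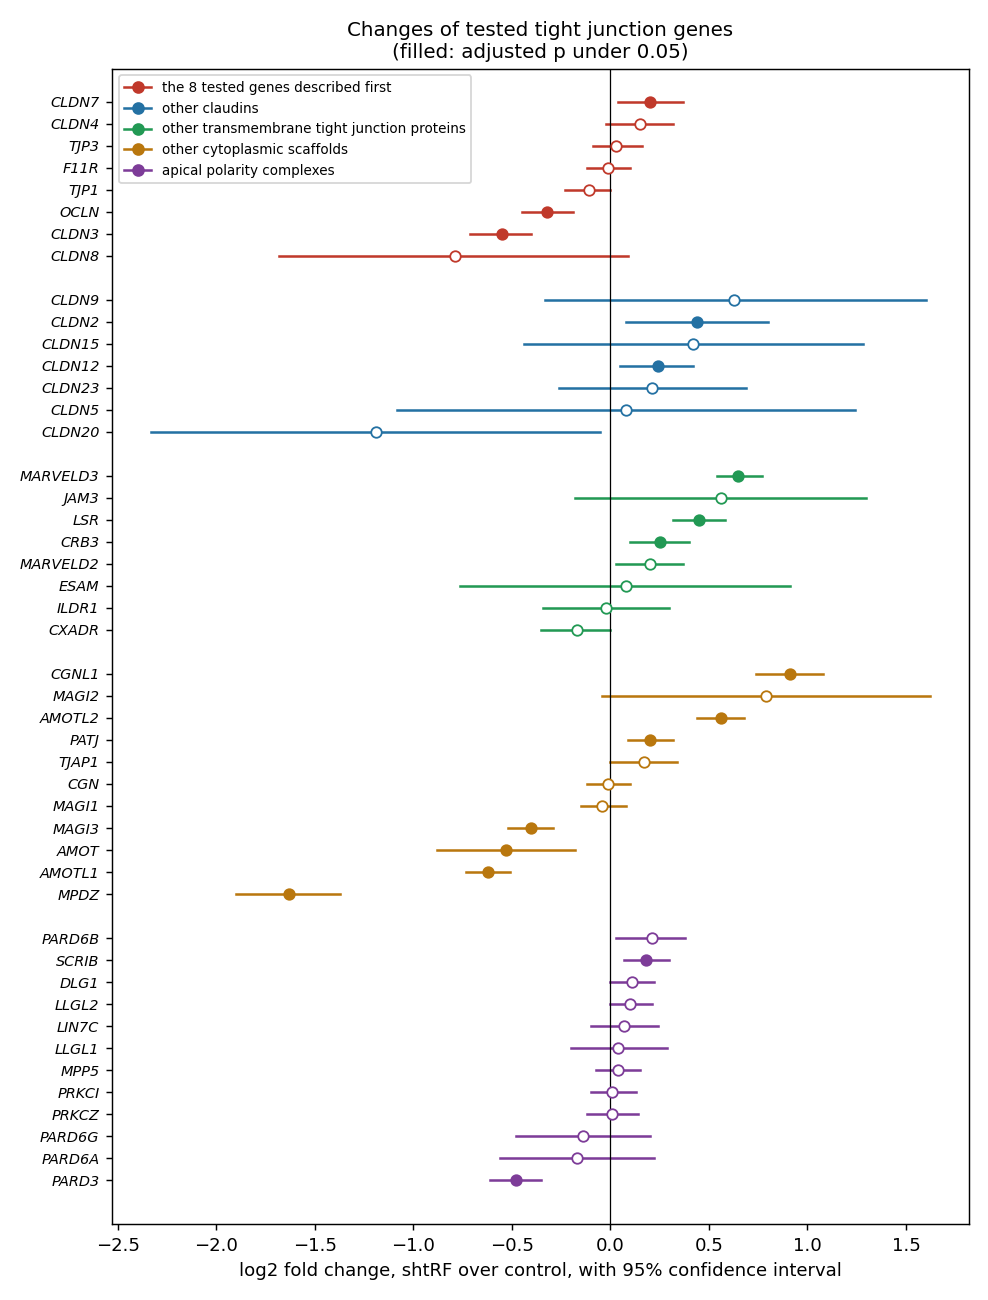
Log2 fold change (shtRF over control, x axis) with its 95% interval for the 8 tested genes and the genes of the other 4 lists reported here, filled where the edgeR adjusted p was under 0.05. *MPDZ* stands lowest at -1.63 and *CGNL1* is the highest filled point at 0.91.

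Of 8 membrane proteins listed beside the claudins, among them a protease and its inhibitors, 7 genes were tested and 3 rose. Their median log2 fold change was 0.13 over the 7 genes. The called share was 42.9%, against 39.5% of all tested genes. *EPCAM*, which holds claudin-7 at the lateral membrane, went from 504 ± 27 to 552 ± 17.1 CPM (0.13, edgeR adjusted p = 0.0650), and the protease gene *ST14*, encoding matriptase, from 299 to 303 CPM (0.02, edgeR adjusted p = 0.804). The matriptase inhibitors were named after their values were seen: *SPINT1* rose from 173 ± 3.67 to 233 ± 1.97 CPM (0.43, edgeR adjusted p = 4.96e-07) and *SPINT2* from 217 to 245 CPM (0.17, edgeR adjusted p = 0.0133). Without control library 1 or shtRF library 3 the edgeR adjusted p of *SPINT2* was 0.0710 or 0.115, and its call was also lost with upper quartile scaling (0.0508) and in both limma-trend fits (0.0807 and 0.0820). Without control library 3 or shtRF library 1 the edgeR adjusted p of *EPCAM* was 0.0220 or 0.0443.

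Of 12 transcription regulators of junction genes in the table, 8 were tested, 3 rose and 2 fell (62.5% called, against 39.5% of all tested genes). *GRHL2*, a Grainyhead factor that activates claudin and other epithelial genes, fell from 126 ± 3.64 to 113 ± 0.854 CPM (-0.16, edgeR adjusted p = 0.0171), and its relative *GRHL1* rose from 96.0 to 107 CPM (0.16, edgeR adjusted p = 0.0259). Named after their values were seen, *GRHL3* fell (-0.33, edgeR adjusted p = 0.00132) and the epithelial factor *ELF3* rose from 31.9 ± 1.28 to 52.6 ± 2.20 CPM (0.72, edgeR adjusted p = 1.91e-09). *ZEB1*, a repressor of epithelial genes named in the same way, was low, at 1.64 ± 0.525 and 2.44 ± 0.236 CPM (0.57, edgeR adjusted p = 0.0292). The smaller calls depended on the setting. That of *GRHL1* was lost with upper quartile scaling (edgeR adjusted p = 0.0840), no filter (0.0570) and both limma-trend fits (0.129 and 0.132), and that of *ZEB1* in both limma-trend fits (0.142 and 0.149). The edgeR adjusted p of *GRHL2* was 0.0509 without control library 2, 0.0565 without shtRF library 2 and 0.0573 without shtRF library 3. That of *GRHL1* was 0.0644 and 0.0799 without control libraries 1 and 3 and 0.105 without shtRF library 2 or 3, and that of *ZEB1* was 0.108 and 0.133 without control libraries 1 and 3 and 0.121 and 0.0559 without shtRF libraries 1 and 3. *SNAI1*, *SNAI2*, *ZEB2* and *TWIST1* were too low to be tested.

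The profiles most like the members' were sought among tested genes of at least 2 CPM, by the Euclidean distance between log2 CPM values centred over the 6 libraries. For *CLDN7*, the member with the largest positive change, they were *AKAP13* (distance 0.0202), *MYO9A* (0.0244) and *CAP1* (0.0397) among 13188 candidates. For *CLDN8*, the member with the largest negative change, the nearest were a gene model without a symbol (0.664), *POTEI* (0.748) and *OCEL1* (0.799), at larger distances than for *CLDN7*. For *CLDN3*, added after its values were seen, they were *MYLIP* (0.112), AC007899.3 (0.119) and *GPI* (0.129).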

How the data were processed

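Messenger RNA was sequenced as stranded, paired-end libraries from 3 control and 3 shtRF samples of MDA-MB-453. Per the submitters' processing notes, the authors trimmed reads with Trimmomatic 0.36, counted them per gene with featureCounts (Subread 1.5.1) on GRCh38 and used edgeR 3.12.1. The aligner, the gene annotation and whether counting used the strand are not given in the sources used here. The deposited table holds unnormalized read counts and the exonic length of each gene. The authors' RPKM table, of which 4997 complete genes were used, equalled unscaled CPM divided by kilobases of exon for 100% of values of the 4991 genes matched by symbol (relative tolerance 0.0001). RPKM was therefore recomputed for all genes. Among counts of 1 to 4, 74.2% to 77.1% were even, against 49.7% to 50.7% of counts of at least 1000. Mates of a pair may thus have been counted separately, and halved counts were tried as an alternative. Total counts differed 1.24-fold.

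Genes were filtered with filterByExpr (minimum count 10), scaled by TMM and tested with the edgeR 4.0.16 quasi-likelihood test (R 4.3.3, group as the only term) with Benjamini-Hochberg adjustment over 19628 genes and a threshold of 0.05. CPM used TMM factors and RPKM did not. The procedure was tested on simulated data. DESeq2 1.42.0 and limma 3.58.1 served as alternatives, beside other scalings, filters, a replicate block and each library left out. Exon sharing, neighbours and coordinates of the genes came from the exon positions in the count table, and upstream windows from RefSeq. As a check of the genome build, 98.4% of 25660 symbols overlapped their locus in GENCODE 29.

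All 9 members were named. From the other lists, genes past the threshold with a change over 2-fold and at least 2 CPM were named, and the 2 of highest mean CPM in each list. The members and lists were chosen with earlier results of these data known. *TWIST2* and *LUM* were listed but are not analysed here. Some genes of the lists are counted but not reported here by name.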

Additional observations from a re-analysis of the deposited data

How the results depend on the processing

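The 2 falls, of *CLDN3* and *OCLN*, were called in all 16 alternatives, and the single rise was not firm. The number of members called higher, 1 in the reported fit, was 0 with upper quartile scaling, with no filter, with at least 10 counts in every library, with at least 1 CPM in 3 libraries, with limma-trend on log2(RPKM + 1) or log2(RPKM + 0.1), and with halved counts. It was 0 to 1 when 1 library was left out. The other tight junction genes called higher, 10 in the reported fit, numbered 5 in both limma-trend fits (6 lower, against 5 in the reported fit) and 5 to 10 when 1 library was left out (5 without shtRF library 3). Over all tested genes, 4046 were called higher in the reported fit, against 2900 and 2903 in the limma-trend fits and 3508 with upper quartile scaling. Those called lower numbered 3704, against 3803, 3840 and 4174. The log2 fold changes of all tested genes shifted by a median of -0.0464, -0.0517 and -0.0361 in these 3 settings. Among the named genes, signs changed for 5 whose change did not pass: *TJP3* to -0.00 with upper quartile scaling, -0.02 in both limma-trend fits and -0.00 without shtRF library 2 (-0.00 to 0.07 over libraries left out), *F11R* to 0.00 and 0.01 without control or shtRF library 2 (-0.03 to 0.01), *CGN* to 0.01 without control or shtRF library 1 (-0.04 to 0.01), *MPP5* to -0.01 and -0.02 in the limma-trend fits, and *ST14* to -0.01 with upper quartile scaling, -0.03 in both limma-trend fits and -0.02 without control library 3 (-0.02 to 0.06). The cause was not tested. For the 8 tested members, 106 of 127 alternative values had the reported sign and call.

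With a replicate block, members called higher numbered 1 and lower 2, and the other tight junction genes 10 and 5. Deviations of same-numbered libraries correlated at 0.0592, 0.0178 and 0.0174 across genes, so the numbers were not taken to pair libraries, and control library 3 correlated best with shtRF library 2 (0.0562). Of the named genes' calls, that of *CLDN2* was lost under the block (edgeR adjusted p = 0.0573), as it was in most other alternatives.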

Other observations

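Neighbours were the nearest tested genes on either side that did not overlap the member. Those of *CLDN3*, *CLDN7* and *OCLN* had log2 fold changes of the opposite sign to these members. Beside *CLDN4*, the neighbour of *CLDN3* was *ABHD11*, 30130 bp before it, which rose (0.22, edgeR adjusted p = 0.0105). *CTDNEP1*, 7412 bp before *CLDN7*, fell (-0.37, edgeR adjusted p = 0.00121), and *YBX2*, 24269 bp after it, had -0.14 (edgeR adjusted p = 0.0928). *MARVELD2*, which encodes tricellulin and lies 47962 bp before *OCLN*, had 0.20 (edgeR adjusted p = 0.0616), and *GTF2H2C*, 2104 bp after *OCLN* and one of several near-identical copies whose counts are uncertain, rose (0.42, edgeR adjusted p = 2.92e-05). For *CLDN8* the neighbours *GRIK1* (-0.76, edgeR adjusted p = 0.277) and *TIAM1* (-0.50, edgeR adjusted p = 3.51e-07), 902343 bp away, had the same sign as the member. Beside *CLDN4*, *CLDN3* fell and *WBSCR27* had -0.15 (edgeR adjusted p = 0.668). The neighbours had -0.02 and 0.92 for *TJP1*, 0.01 and 0.00 for *TJP3*, and -0.43 and 0.05 for *F11R*, and none of these passed. All these neighbours were picked by position, after the members' values were known.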
